A study of Mus musculus with 10 samples.

Results

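The expression of *Dnmt1*, *Dnmt3a*, *Dnmt3b*, *Dnmt3l*, *Uhrf1*, *Tet1*, *Tet2*, *Tet3*, *Tdg* and *Dot1l* was followed through chemical reprogramming of mouse embryonic fibroblasts (MEFs) towards cells resembling extraembryonic endoderm (XEN). These 10 genes were taken by name from the 23197 genes of a single-cell count table, and all 10 were present. According to the study's methods, MEFs came from embryos of ICR mice, with head, limbs and viscera removed, so they hold several cell types of the trunk. The labels give no genetic change for any cell, and all cells share 1 treatment label, the cocktail C6FAE. It consists of CHIR99021 (C, an inhibitor of glycogen synthase kinase 3), a TGF-beta receptor inhibitor (6), Forskolin (F), the retinoid AM580 (A) and EPZ004777 (E). The methods also describe this medium with valproic acid added, and the labels do not say whether the sequenced cells received it. Cells were picked by hand on days 0, 1, 2, 3, 4, 5, 6, 8, 12 and 20 and are named d0 to d20 after the day. The name of the day 6 cells carries a p, and further cells of day 8 and day 12 carry a c (d8c and d12c). The labels explain neither letter, and the study describes the c cells as taken from colonies. The 12 groups of cells named this way are called time points below, although d8c shares its day with d8 and d12c with d12.

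DNA methylation in mammals is written and removed by different enzymes. Dnmt1 copies methyl groups onto the new strand after replication and is brought to half-methylated sites by Uhrf1, whereas Dnmt3a and Dnmt3b methylate sites that carried no mark. Dnmt3l has no activity of its own and assists these enzymes, mainly in germ cells and early embryos. The Tet enzymes oxidise methylated cytosine, and Tdg cuts the oxidised base out so that repair can put back a plain cytosine. Dot1l methylates histone H3 at lysine 79 on transcribed genes and is the enzyme that EPZ004777 inhibits, a drug that acts on the protein. Extraembryonic lineages of the mouse are known for lower DNA methylation than the embryo proper.

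Sequences before a listed start of *Dnmt1* and *Uhrf1* are shown because these genes had the highest cell-to-cell correlation with DNA replication genes among the members. Each run gives the 250 bases before a RefSeq transcription start on GRCm38.p6, read 5′ to 3′ on the gene's strand. Capitals mark any of the words TTTCCCGC, TTTGGCGC, TTTCGCGC and TTTGCCGC, on either strand, which are forms of the site bound by E2F factors. The *Dnmt1* run lies at chr9:20952624-20952873 on the minus strand and the *Uhrf1* run at chr17:56304063-56304312 on the plus strand.
Dnmt1: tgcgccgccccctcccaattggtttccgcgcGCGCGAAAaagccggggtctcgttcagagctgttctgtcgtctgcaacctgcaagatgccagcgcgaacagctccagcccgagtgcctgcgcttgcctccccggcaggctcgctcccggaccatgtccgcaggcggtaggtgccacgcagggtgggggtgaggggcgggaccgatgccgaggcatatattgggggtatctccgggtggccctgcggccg
Uhrf1: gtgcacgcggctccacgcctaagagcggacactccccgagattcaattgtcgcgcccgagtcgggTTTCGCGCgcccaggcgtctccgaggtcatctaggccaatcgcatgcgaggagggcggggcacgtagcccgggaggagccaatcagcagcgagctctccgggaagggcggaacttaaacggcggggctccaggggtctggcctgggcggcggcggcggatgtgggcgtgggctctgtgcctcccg
*Dnmt1* held 1 further such word, beginning 33 bases past the start. The table lists 3 starts for *Dnmt1* and 2 for *Uhrf1*, of which the one with most CpG dinucleotides is shown, and the other windows held none of the words. The other *Dnmt1* starts lie upstream of the whole printed run, which also holds the beginning of a *Dnmt1* coding sequence, so the run lies within the gene for transcripts from those starts and is not shown as the promoter of every *Dnmt1* transcript. Windows of the remaining 8 members held none either. In all, 2.26% of 32851 windows of 300 bases (250 before to 50 after a start) held at least 1 of these words. By gene, this was 704 of 27025 (2.60%), against 12 of the 31 S phase genes of the fixed list that matched the table (38.7%).

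CpG content ranged widely over the members' windows, and the extremes are shown with each CG in capitals. The *Tet2* run lies at chr3:133544391-133544640 on the minus strand and the *Dnmt3l* run at chr10:78042037-78042286 on the plus strand.
Tet2: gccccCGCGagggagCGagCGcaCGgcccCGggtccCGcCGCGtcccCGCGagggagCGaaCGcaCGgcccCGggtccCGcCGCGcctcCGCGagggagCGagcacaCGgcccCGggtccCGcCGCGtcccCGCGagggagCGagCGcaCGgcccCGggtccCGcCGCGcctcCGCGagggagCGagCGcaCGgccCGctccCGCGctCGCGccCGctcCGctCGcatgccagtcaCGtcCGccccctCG
Dnmt3l: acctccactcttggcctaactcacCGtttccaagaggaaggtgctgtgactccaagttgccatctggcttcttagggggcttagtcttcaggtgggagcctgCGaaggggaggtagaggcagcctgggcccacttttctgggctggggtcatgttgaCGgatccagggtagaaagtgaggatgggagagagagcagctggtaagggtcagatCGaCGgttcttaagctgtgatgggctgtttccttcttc
The *Tet2* run held 51 CG and the *Dnmt3l* run 5. Over windows of 300 bases, *Tet2* had 57 CpG (above 99.8% of all windows), *Dot1l* 49 and *Dnmt3a* 47, against a median of 7 over all windows. *Dnmt3l*, with 6, was the only member whose richest window was below that median. A match or a count of letters describes these sequences and says nothing of binding or methylation, which were not measured.

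On the build of the count table (mm9, positions from GENCODE M1 on NCBIM37), *Dnmt1* lies at chr9:20711650-20757317, *Uhrf1* at chr17:56442744-56462909 and *Dnmt3a* at chr12:3806007-3914443. *Dnmt3b* lies at chr2:153475186-153513466, *Dnmt3l* at chr10:77504692-77526367 and *Tdg* at chr10:82092573-82113544. *Tet1* lies at chr10:62267318-62361866, *Tet2* at chr3:133126643-133207354, *Tet3* at chr6:83312367-83391672 and *Dot1l* at chr10:80217951-80258206. All are annotated as protein-coding, and the UMIs cannot be placed in an exon or UTR. The strand of the reads is not stated. Among annotated genes that overlap a member and are in the table, *Aire*, antisense to *Dnmt3l*, had 0 UMIs and *Glt8d2*, antisense to the end of *Tdg*, had 642 over all cells.

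RNA molecules were counted by unique molecular identifiers (UMIs). The 670 of 808 cells in which 4000 or more genes were detected entered, and levels are given as CPM, the gene's UMIs divided by the cell's UMI total without spike-in RNAs, times 1000000. The series lists 10 batches, but a cell's name holds its day and a running number, with no batch, so the table was treated as 1 sample. No test between time points was therefore possible, differences are values without a replicate check, and the intervals given (95%, exact Poisson for UMIs and exact Clopper-Pearson for shares of cells) cover counting error only. The shallowest time point was d20 (median 195480 UMIs per cell) and the deepest d2 (1055210), and the filter removed 34 of 72 cells at d20 and 45 of 96 at d12c, against 12 of 84 at d0. Kept d12c cells fell into numbers 1 to 24 (21 cells) and 49 to 96 (30 cells), and these ranges differed in marker genes. The summed level of 10 fibroblast markers (such as *Col1a1*) averaged 3316 CPM at d0, 11933 at d8 and 9436 at d12. It was 4120 in d12c cells numbered 1 to 48, 89.4 in those numbered above 48 and 96.4 at d20. For 12 XEN markers (such as *Sox17*) these sums were 256, 180, 626, 1652, 3277 and 4034 CPM. At d20, *Sox17* averaged 982 CPM and *Krt8*, a keratin of epithelia, 1155, while *Col1a1* averaged 3.63 and *Osr1* was at 0. Other markers of these 2 lists differed less between d0 and d20. *Thy1* averaged 53.7 CPM at d0 and 36.0 at d20 and *Twist1* 25.9 and 5.39, both fibroblast markers. Of the XEN markers, *Dab2* averaged 55.1 and 56.5 and *Gata6* 9.24 and 23.6. The d12c cells were therefore described in these 2 ranges, and d20 and the higher range of d12c are called XEN-like. If number ranges stand for batches, batch and cell type cannot be told apart in d12c. Cell barcodes were not analysed here.

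**Figure D1:**
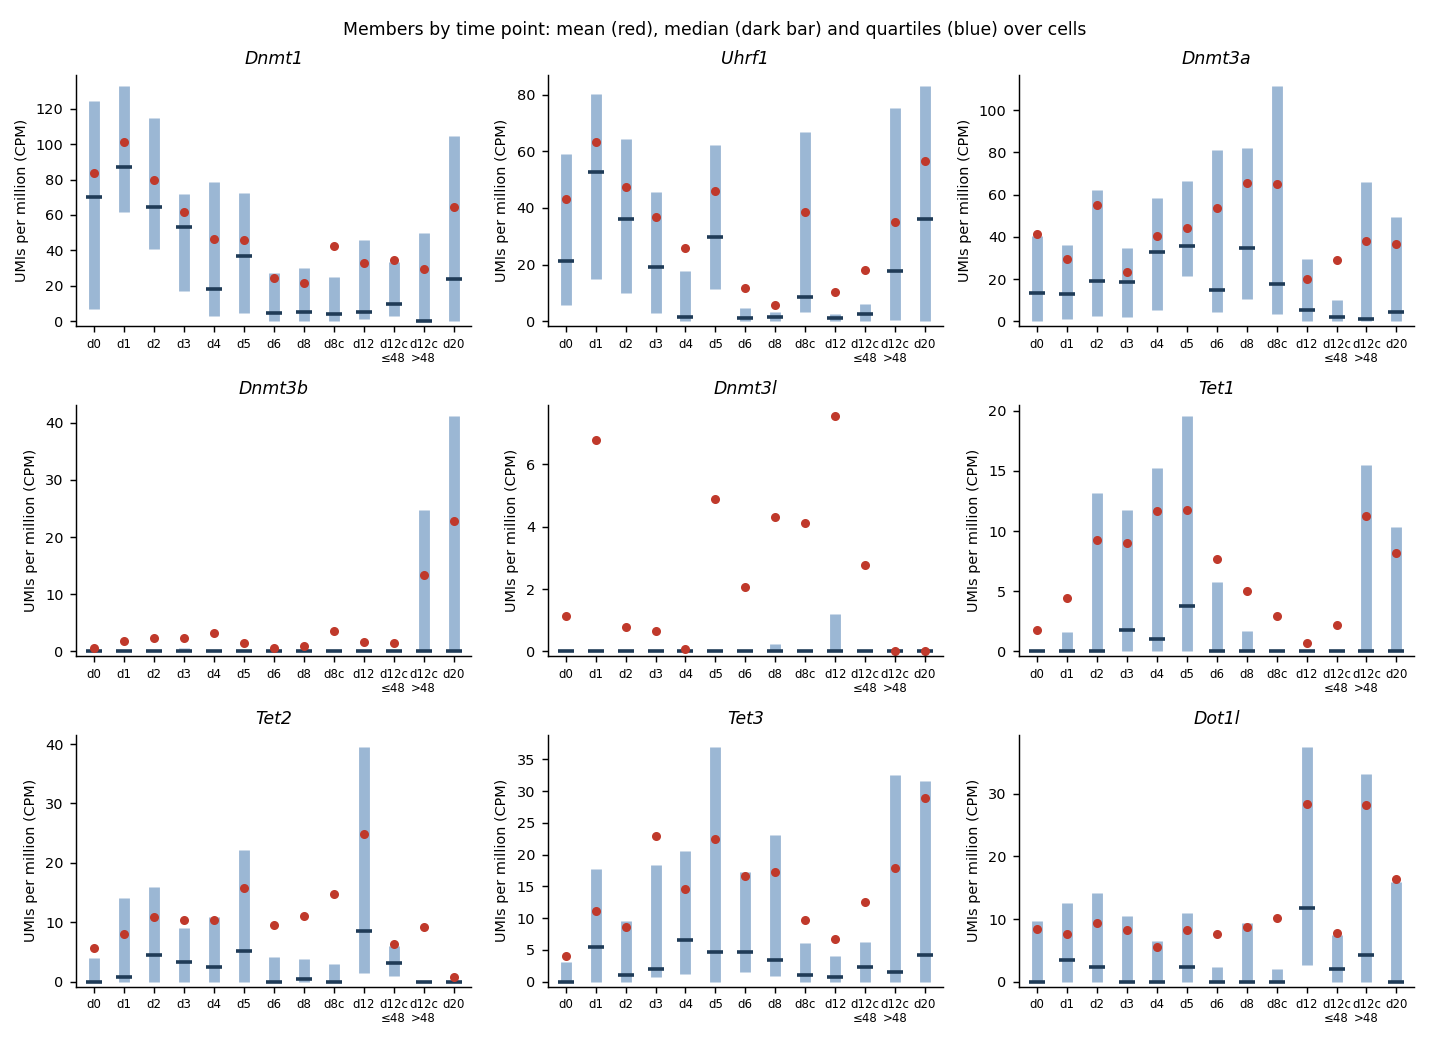
Level of 9 members (all but *Tdg*) by time point. The vertical axis is the level in a cell in CPM, red points are means over cells, dark bars medians, and blue bars run from the first to the third quartile. *Dnmt3b* is highest in the d12c cells numbered above 48 (mean 13.4 CPM) and at d20 (22.8), *Dnmt3l* is 0 in both of these, and *Tet2* and *Dot1l* stand highest at d12.

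By mean over cells, the maintenance pair *Dnmt1* and *Uhrf1* was highest at d1, lowest at d8 and high again at d20. For *Uhrf1* the order of d1 and d20 depended on the measure. At d1, 1 cell of 490 CPM made up 19.3% of its sum. Without the highest cell its means were 52.6 CPM at d1 and 51.9 at d20, and pooled UMIs gave 46.0 and 64.8. *Dnmt1* averaged 83.4 CPM at d0, 101 at d1, 79.7 at d2, 61.8 at d3, 46.5 at d4 and 45.8 at d5, then 24.4 at d6 and 21.7 at d8. It stood at 42.2 in d8c, 32.7 at d12, 34.3 and 29.4 in the lower and higher numbers of d12c, and 64.6 at d20. At d1 every one of the 40 cells had a *Dnmt1* UMI (lowest 11.3 CPM, median 87.2, highest 262), whereas at d8 the median cell had 5.06 CPM and the highest 141. *Uhrf1* moved through a wider range. Its means were 43.0 CPM at d0, 63.5 at d1, 47.5 at d2, 36.7 at d3, 26.0 at d4 and 45.8 at d5, then 11.6 at d6 and 5.75 at d8. They were 38.6 in d8c, 10.2 at d12, 18.1 and 35.1 in the lower and higher numbers of d12c, and 56.5 at d20. The highest mean was 4.65 times the lowest for *Dnmt1* and 11 times for *Uhrf1*. At d12 the median cell had 1.08 CPM of *Uhrf1* and the highest 190, and 9 of 67 cells were at or above 20 CPM. At d20, 23 of 38 cells were, with a median of 36.1 and a highest cell of 226. With the 12 time points ordered by mean, the quartile ranges of all 11 neighbouring pairs overlapped for each member. Sorting makes this likely, and for *Tdg*, *Dnmt3b* and *Dnmt3l*, with quartiles at 0 in most groups, it could hardly be otherwise. Counting limits of neighbours overlapped in 4 of 11 pairs for *Dnmt1*, 2 for *Uhrf1*, 3 for *Dnmt3a*, 8 for *Dnmt3b* and 6 for *Dnmt3l*. For *Tet1*, *Tet2*, *Tet3* and *Dot1l* it was 5, 6, 4 and 2.

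Expression of this pair went with that of replication genes within a time point. The summed CPM of 42 S phase genes averaged 2608 at d0, 3486 at d1, 966 at d8, 1039 at d12, 3225 in d12c cells numbered above 48 and 3971 at d20. Over the cells of a time point, *Dnmt1* had a Spearman correlation with this sum of 0.58 in the median of the 12 time points (0.48 after thinning each cell to 50000 UMIs). For *Uhrf1* it was 0.54 (0.46 thinned). The medians of the remaining 8 members lay between -0.13 for *Tet2* and 0.09 for *Tet1*. For *Dnmt1* the correlation differed between stages. It was between 0.54 and 0.72 in d0 to d5 and d8c, but 0.20 at d6, 0.20 at d8, 0.06 at d12, 0.04 in d12c and 0.21 at d20. Within the lower and higher numbers of d12c it was 0.22 and 0.25. *Uhrf1* kept 0.40 to 0.72 in 10 time points, including 0.51 at d12 and 0.60 in d12c, and was low at d6 (0.07) and d8 (0.21). These correlations are over 20 to 86 cells, which may share batches and differ in depth. Correlation with depth itself was 0.14 for *Dnmt1* and 0.11 for *Uhrf1* in the median. It was higher at d8 (0.38 and 0.42) and in the 20 cells of d8c (0.44 and 0.51). In d8c, thinning took the correlation with S phase genes from 0.69 to 0.44 for *Dnmt1* and from 0.60 to 0.47 for *Uhrf1*. Relative to the S phase sum, *Dnmt1* was lower than in MEFs in XEN-like groups and in others. For each 1000 CPM of S phase genes there were 32.0 CPM of *Dnmt1* at d0, 20.2 at d6, 22.5 at d8, 18.9 in d8c, 31.5 at d12, 25.3 and 9.11 in the lower and higher numbers of d12c, and 16.3 at d20. For *Uhrf1* these values were 16.5, 9.65, 5.95, 17.3, 9.82, 13.3, 10.9 and 14.2. Between the members, *Dnmt1* and *Uhrf1* were positively correlated over cells in 12 of 12 time points, with a median of 0.34.

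**Figure D2:**
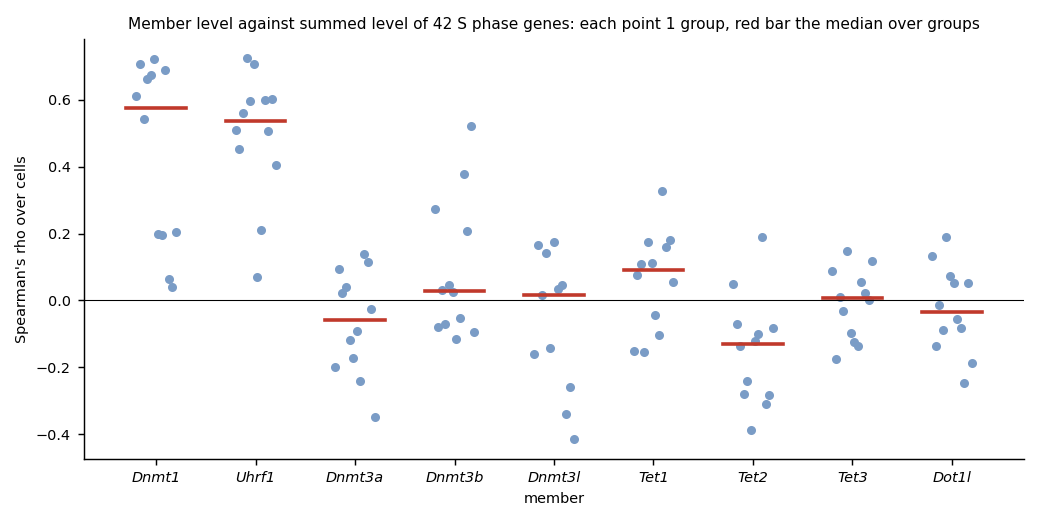
Spearman's rho over cells between each member and the summed level of 42 S phase genes. Each blue point is 1 time point and the red bar is the median over time points. *Dnmt1* (median 0.58) and *Uhrf1* (0.54) stand above the other members shown, whose medians are between -0.13 and 0.09.

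Among de novo enzymes, *Dnmt3a* was present at every time point and *Dnmt3b* had a mean at or under 3.63 CPM in every group but the XEN-like ones. *Dnmt3a* averaged 41.3 CPM at d0, 29.5 at d1, 55.3 at d2, 23.5 at d3, 40.5 at d4 and 44.1 at d5, then 53.7 at d6 and 65.4 at d8. It was at 65.2 in d8c, 19.9 at d12, 28.8 and 37.9 in the lower and higher numbers of d12c, and 36.6 at d20. The highest mean was 3.29 times the lowest, the narrowest range of the 9 members other than *Tdg*. The spread over cells was wide. At d2, where 77 of 83 cells had a UMI, the median cell had 18.9 CPM and the highest 892, and at d20 the median was 4.32 and the highest 341.

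*Dnmt3b* averaged 0.65 CPM at d0, 1.81 at d1, 2.29 at d2, 2.36 at d3, 3.15 at d4 and 1.40 at d5, then 0.57 at d6 and 0.91 at d8. It stood at 3.63 in d8c, 1.62 at d12 and 1.55 in d12c cells numbered 1 to 48, and then at 13.4 in those numbered above 48 and 22.8 at d20. The d20 cells ran from 0 (the median cell as well) to 139 CPM. With each cell thinned to 50000 UMIs, *Dnmt3b* had a UMI in 15 of 36 cells at d20 (41.7%, interval 25.5% to 59.2%) and 9 of 26 d12c cells numbered above 48 (34.6%, 17.2% to 55.7%). At d12 it was seen in 3 of 66 (4.55%, 0.95% to 12.7%) and at d0 in 2 of 71 (2.82%, 0.34% to 9.81%). Without thinning these shares were 44.7%, 40.0%, 11.9% and 5.56%. The deeper cells of d2 and d3 had a *Dnmt3b* UMI in 20.5% and 31.6% without thinning, and in 5 of 82 (6.10%) and 3 of 37 (8.11%) with it. Of the 17 d20 cells with a *Dnmt3b* UMI, 8 also had one of *Dnmt3a* (47.1%, against 52.6% of all d20 cells).

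*Dnmt3l* was low and scattered before day 20 and was not seen in XEN-like cells. Its means were 1.15 CPM at d0, 6.77 at d1, 0.77 at d2, 0.65 at d3, 0.09 on d4, 4.89 on d5, 2.06 at d6, 4.32 at d8 and 7.54 at d12. In d8c it was 4.12 CPM, all from 1 of 20 cells. The d12 level came from 22 of 67 cells, with a highest cell of 82.3 CPM, and the d1 level from 9 of 40. At d20 there were 0 UMIs in 38 cells, which allows a share of up to 9.25%, and in d12c cells numbered above 48 there were 0 in 30, which allows up to 11.6%. These shares are without thinning, and the d12 cells were deeper. After thinning to 50000 UMIs, *Dnmt3l* was seen in 6 of 66 cells at d12 (9.09%, 3.41% to 18.7%). At d20 it was in 0 of 36 (up to 9.74%), and these 2 intervals overlap. With a floor of 3 UMIs put in place of the 0 at d20, *Dnmt3l* was 21.5-fold lower there than at d12. All 22 d12 cells with *Dnmt3l* also had *Tet2*, which 80.6% of d12 cells had.

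**Figure D3:**
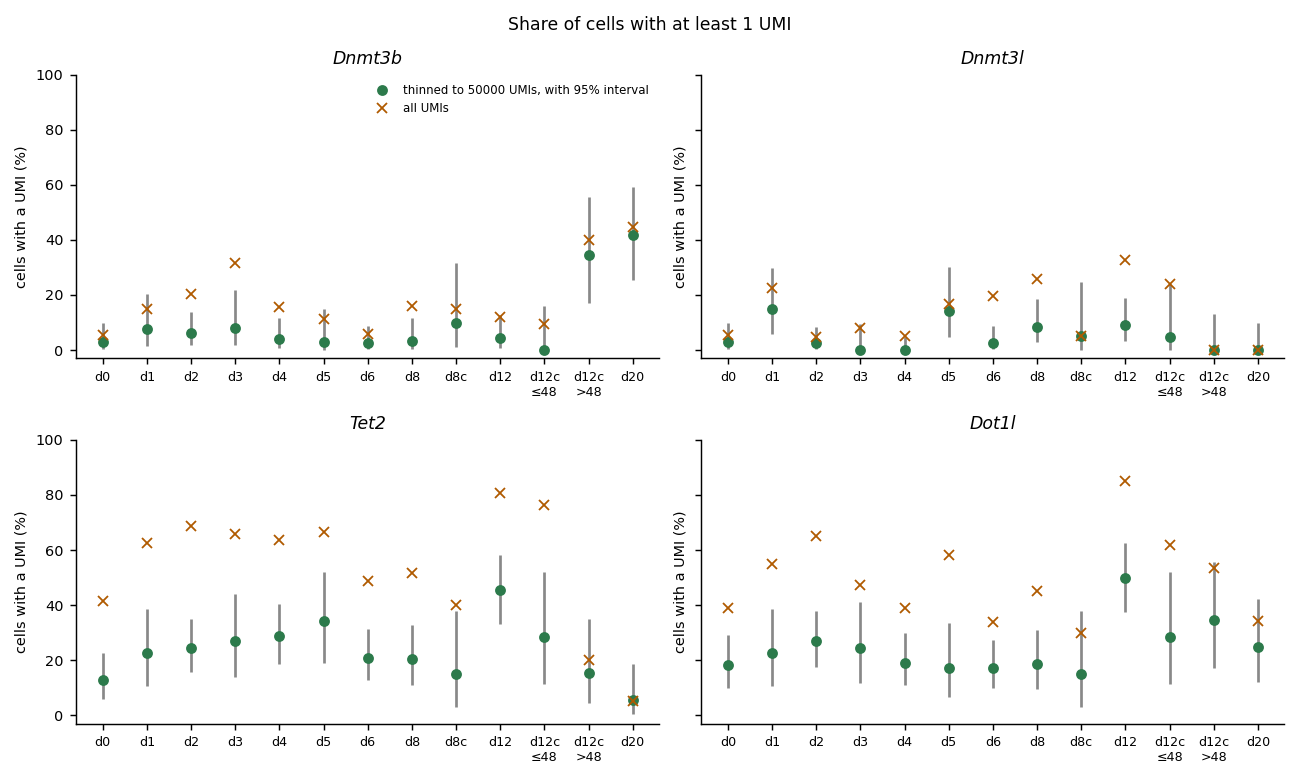
Share of cells with at least 1 UMI of *Dnmt3b*, *Dnmt3l*, *Tet2* and *Dot1l*, in percent, by time point. Green points are shares after thinning each cell to 50000 UMIs, with exact 95% intervals as grey lines, and orange crosses are shares with all UMIs. *Dnmt3b* is at 41.7% at d20 and 4.55% at d12 after thinning, while *Tet2* is at 5.56% and 45.5%.

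The *Tet* genes, whose products start demethylation, took 3 different courses. *Tet1* averaged 1.76 CPM at d0, 4.41 at d1, 9.26 at d2, 9.04 at d3, 11.7 at d4 and 11.8 at d5, then 7.64 at d6 and 4.99 at d8. After 2.93 in d8c and 0.69 at d12, it was 2.23 and 11.2 in the lower and higher numbers of d12c and 8.19 at d20. At d12 no cell reached 20 CPM of *Tet1* (highest 15.1), whereas 9 of 36 did at d5 and 6 of 38 at d20.

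*Tet2* ran opposite to this late in the course. Its means were 5.67 CPM at d0, 8.02 at d1, 10.9 at d2, 10.4 at d3, 10.4 on d4, 15.8 on d5, 9.61 at d6, 11.1 at d8, 14.7 in d8c and 24.9 at d12. In d12c they were 6.30 and 9.27 for the lower and higher numbers, and at d20 0.84. The d12 cells ran from 0 over a median of 8.47 to 165 CPM, and 24 of 67 were at or above 20 CPM. At d20, 36 of 38 cells had no *Tet2* UMI and 1 cell of 27.0 CPM made up 84.1% of the sum, leaving 0.14 CPM without it. After thinning, *Tet2* was seen in 30 of 66 cells at d12 (45.5%, 33.1% to 58.2%), in 9 of 71 at d0 (12.7%, 5.96% to 22.7%) and in 2 of 36 at d20 (5.56%, 0.68% to 18.7%).

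By mean over cells *Tet3* was lowest in MEFs and highest at day 20, and its highest time point depended on the measure. It averaged 3.99 CPM at d0, 11.1 at d1, 8.65 at d2, 23.0 at d3, 14.6 at d4 and 22.4 at d5, then 16.7 at d6 and 17.3 at d8. It was 9.69 in d8c, 6.75 at d12, 12.6 and 17.8 in the lower and higher numbers of d12c, and 28.9 at d20. At d3, 1 cell of 405 CPM carried 46.4% of the sum, and the mean without it was 12.6. The d20 median was 4.12 CPM and the highest cell 202. Medians were higher at d1 (5.45), d4 (6.48), d5 (4.58) and d6 (4.71). By averaged log2 values *Tet3* was highest at d4, and with a minimum of 6000 genes per cell at d5. After thinning, 20 of 36 d20 cells (55.6%, 38.1% to 72.1%) and 10 of 71 d0 cells (14.1%, 6.97% to 24.4%) had a *Tet3* UMI.

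*Tdg*, the glycosylase that acts after the Tet enzymes, was hardly counted, with 31 UMIs in 17 of 670 cells and no mean above 0.24 CPM. This value is uncertain. Its longest annotated transcript aligned to 3 other places of the genome over at least 50% of its length at 90% identity or more, on chromosomes 7 (97.0% identity), 10 (93.2%) and 15 (92.8%), and reads shared with such copies could have been split or dropped in counting. No other member had such a copy, although *Uhrf1* had a partial match on chromosome X at 89.1% identity.

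*Dot1l* stayed between 5.59 and 10.1 CPM until day 8 and was higher at d12 and in the higher numbers of d12c, but not in the lower numbers of d12c. Its means were 8.45 CPM at d0, 7.56 at d1, 9.44 at d2 and 8.19 at d3, then 5.59 at d4, 8.23 at d5, 7.60 at d6, 8.72 at d8 and 10.1 in d8c. They were 28.3 at d12, 7.78 in d12c cells numbered 1 to 48, 28.1 in those numbered above 48 and 16.3 at d20. At d12 the cells ran from 0 over a median of 11.7 to 186 CPM, and 57 of 67 had a UMI, against 28 of 72 at d0 with a median of 0 and a highest cell of 113 CPM. After thinning, *Dot1l* was seen in 50% of d12 cells (37.4% to 62.6%) and 18.3% of d0 cells (10.1% to 29.3%). At d20, 1 cell of 252 CPM made up 40.6% of the sum, and the mean without it was 9.96. Of 54 d12 cells with *Tet2*, 49 also had *Dot1l* (90.7%, against 85.1% of all d12 cells).

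Differences between time points were taken as log2 of (mean CPM + 1) over (mean CPM + 1), for genes with a mean of at least 5 CPM in either group, and called past 2-fold. Since no replicate exists, the share of all genes past the same limit stands beside each count. At d1 against d0, 2 of 7 members compared were past 2-fold, both higher, against 21.5% of 9514 genes (9.75% higher). *Dnmt3l* had a log2 ratio of 1.86 (counting limits 1.47 to 2.23) and *Tet3* of 1.28 (1.00 to 1.55). The sum for *Dnmt3l* rested on 9 of 40 and 4 of 72 cells, and from pooled UMIs its ratio was 0.95. *Dnmt1* (0.27), *Uhrf1* (0.55) and *Dnmt3a* (-0.47) were not past it.

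At d5 against d0, 3 of 7 members were past 2-fold, all higher and all *Tet* genes, against 30.6% of 10099 genes (20.4% higher). The ratio was 2.21 (1.87 to 2.55) for *Tet1*, 1.33 (1.03 to 1.63) for *Tet2* and 2.23 (1.97 to 2.49) for *Tet3*. *Dnmt1* was at -0.85 and came to -1.01 with TMM scaling, whereas *Uhrf1* (0.09), *Dnmt3a* (0.09) and *Dot1l* (-0.04) were close to 0. The median over the 7 members was 0.09, against 0.18 over all genes compared.

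At d12 against d0, 3 members were higher and 3 lower of 7, against 38.6% of 9942 genes (19.3% in each direction). *Uhrf1* was lower by a log2 ratio of -1.98 (-2.14 to -1.81), *Dnmt1* by -1.32 (-1.44 to -1.21) and *Dnmt3a* by -1.02 (-1.18 to -0.86). For *Dnmt3a* the value from pooled UMIs was -0.17, and it also missed the limit without the highest cell (-0.90). *Dnmt3l* (1.99, 1.68 to 2.30), *Tet2* (1.96, 1.71 to 2.21) and *Dot1l* (1.63, 1.43 to 1.83) were higher. The median over members was 0.63, against -0.14 over all genes compared. These d12 cells also carried 9436 CPM of fibroblast markers against 3316 at d0, and the part of cell makeup in these ratios was not tested.

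At d20 against d0, 3 of 8 members were higher and 1 lower, against 42.3% of 10157 genes (23.2% higher and 19.1% lower). *Dnmt3b* had a log2 ratio of 3.85 (3.36 to 4.28), a 34.9-fold higher mean, and stood at place 202 among all genes ordered from the highest ratio. The fold is imprecise, since 1 cell held 81.7% of the d0 sum (mean 0.12 CPM without it), and without the highest cell of each group the log2 ratio was 4.20. *Tet3* was at 2.58 (2.23 to 2.93), *Tet1* at 1.74 (1.22 to 2.24) and *Tet2* at -1.85 (-2.36 to -1.29). *Tet2* rests on 14 UMIs at d20 and came to -0.94 with a minimum of 2000 detected genes per cell, which admits more cells. *Dot1l* was at 0.87 (0.53 to 1.22), not past the limit, and *Dnmt1* (-0.36), *Uhrf1* (0.39) and *Dnmt3a* (-0.17) were within 2-fold of MEFs. The median over members was 0.63 against 0.19 over all genes.

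Within the late course, d20 was set against d12, where 4 of 9 members were higher and 2 lower, against 53.7% of 10441 genes (30.8% higher and 22.9% lower). The 2 lower were *Tet2* at -3.81 (-4.23 to -3.35), a 29.5-fold lower mean, and *Dnmt3l* at 0 UMIs. *Dnmt3b* was higher by 3.18 (2.83 to 3.53), *Tet1* by 2.44 (1.97 to 2.88), *Uhrf1* by 2.36 (2.15 to 2.57) and *Tet3* by 1.95 (1.63 to 2.26). *Dnmt1* was at 0.96, *Dnmt3a* at 0.85 and *Dot1l* at -0.76 (-1.10 with TMM scaling, past the limit). The members' median was 0.96, also with *Dnmt3l* at its bound, and that of all genes 0.32. The d12c cells numbered above 48 were compared with d12 as cells of the same day, and again 4 of 9 members were higher and 2 lower, against 48.8% of 10187 genes (23.8% higher and 25% lower). Ratios were 2.85 (2.40 to 3.28) for *Tet1*, 2.46 (2.03 to 2.88) for *Dnmt3b*, 1.69 (1.41 to 1.96) for *Uhrf1*, 1.28 (0.94 to 1.61) for *Tet3* and -1.34 (-1.71 to -0.97) for *Tet2*, with *Dnmt3l* again at 0. *Dot1l* was at -0.01 (-0.27 to 0.25), and the members' median was 0.90 against 0.09 over all genes. Without the minimum of 4000 genes *Tet2* came to -0.32, so its difference among the day 12 cells depended on this filter. Comparisons that share d0 or d12 are not independent of each other. Scaling by TMM factors moved the median of all genes by up to 0.38, from 0.32 to -0.06 at d20 against d12. It took the share of higher genes among those past 2-fold from 57.3% to 43.8% there, from 66.7% to 55.6% at d5 against d0 and from 54.8% to 44.7% at d20 against d0. All members past 2-fold kept their direction under it.

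**Figure D4:**
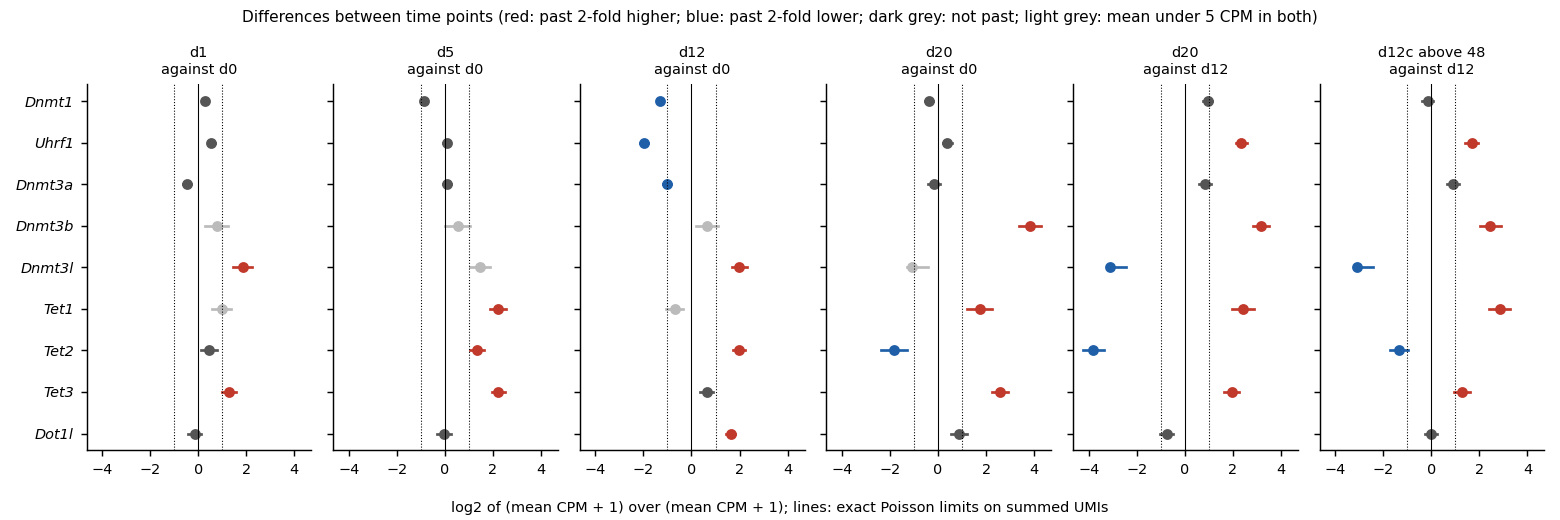
Log2 ratio of mean CPM + 1 for 9 members (all but *Tdg*) in the 6 comparisons, with counting limits as lines and the 2-fold limits dotted. Red is past 2-fold higher, blue past 2-fold lower, dark grey not past and light grey a mean under 5 CPM in both groups. *Dnmt3b*, *Tet1*, *Tet3* and *Uhrf1* are on the right and *Dnmt3l* and *Tet2* on the left in both comparisons with d12.

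Partners of the members, from lists chosen for their function, were compared in the same way. A first list held 18 genes linked to where Dnmt enzymes act. It includes CXXC proteins and *Ctcf*, and not all of its genes place these enzymes on DNA. At d20 against d0, 16 of them were compared, and 4 were past 2-fold higher and 2 lower. This was near the shares of all genes (23.2% higher and 19.1% lower), with a median of 0.51 against 0.19 for all genes. *Hells*, a chromatin remodeller needed for methylation of repeats, averaged 128 CPM at d0, 43.5 at d12 and 335 at d20, and *Setdb1*, an H3K9 methyltransferase, 3.66, 5.97 and 10.8. *Zfp57*, which keeps methylation at imprinted regions, was lower, with 25.6 CPM at d0, 1.97 at d12 and 3.79 at d20, as was *Cxxc5*, a protein with a CXXC zinc finger, with 31.8, 46.1 and 14.4. At d12 against d0 these partners stood at 2 higher and 4 lower of 17, against 19.3% of all genes in each direction. *Hells*, *Cdca7* and *Pcna* are also in the list of S phase genes. *Hells* and *Cdca7* were among those lower at d12 and among those higher at d20. The part of S phase genes in this list's values was not tested.

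In a list of readers of methylated DNA and related proteins, 2 of 8 were higher and 2 lower at d20 against d0, near the share of all genes (42.3% past 2-fold). Being in this list does not mean that a protein, such as *Mbd3*, binds methylated DNA. *Mbd1* averaged 8.85 CPM at d0 and 19.4 at d20 and *Zbtb38* 4.78 and 11.4, while *Mbd3* averaged 88.2 and 40.1 and *Zbtb4* 9.23 and 2.29. For demethylation and base excision repair, 4 of 15 genes were higher and 3 lower, again near the 42.3% of all genes. *Gadd45a* had 8.59 CPM at d0, 156 at d12 and 63.9 at d20, whereas *Gadd45b* had 47.5, 75.3 and 1.62 and *Gadd45g* 714, 917 and 70.8. The 3 genes encode related stress proteins. *Lig3*, the ligase that closes the repaired strand, had 4.89, 3.81 and 19.2.

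The one-carbon and S-adenosylmethionine cycle supplies the methyl groups. At d12 against d0, 1 of 14 of its genes was past 2-fold higher and 7 lower, against 19.3% of all genes in each direction, with a median of -1.01 against -0.14. The S phase genes, which share *Tyms* with this list, were lower in 36 of 41 with a median of -1.42, and their part in the list's values was not tested. At d20 against d0, 3 of 16 were higher and 1 lower, against 23.2% and 19.1% of all genes, with a median of 0.19 equal to that of all genes. *Cbs*, which draws homocysteine out of the cycle, averaged 0.18 CPM at d0, 0.41 at d12 and 27.0 at d20. *Mtr*, which returns homocysteine to methionine, had 3.15, 2.53 and 15.3. *Nnmt*, which spends methyl groups on nicotinamide, had 6.94, 14.0 and 0, the last with 0 UMIs. *Mthfd2*, a folate enzyme of mitochondria, was at 78.2, 32.9 and 57.8 CPM.

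Genes of the Dot1l and elongation complexes were past 2-fold higher in 6 of 12 and lower in 1 at d12 against d0 (median 0.73 against -0.14). Of all genes, 19.3% were past it in each direction, and *Dot1l* itself was higher. At d5 against d0, 4 of 13 were higher and 0 lower (20.4% and 10.2% of all genes), with *Dot1l* at -0.04. The median was 0.71 against 0.18. In d12c cells numbered above 48 against d12, 1 of 13 was higher and 6 lower (23.8% and 25% of all genes), with *Dot1l* at -0.01. The median was -0.97 against 0.09. At d20 against d0 these genes were higher in 3 and lower in 1 of 12, a smaller share than the 42.3% of all genes, with a median of 0.12 against 0.19. *Ccnt1* and *Ccnt2*, cyclins of the elongation kinase P-TEFb, averaged 15.7 and 3.05 CPM at d0 and 55.2 and 13.5 at d20. *Kmt2a*, the H3K4 methyltransferase whose leukemic fusions recruit Dot1l, averaged 32.2 CPM at d0 and 14.9 at d20, and *Aff1*, a scaffold of the elongation complex, 11.4 and 5.32.

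Germline genes that are silenced by promoter methylation in body cells were sparse throughout. The sum over 18 of them averaged 5.95 CPM at d0, 29.9 at d8, 5.81 at d12 and 1.03 at d20, and none had a mean of 5 CPM at d0, d12 or d20. At d6 the sum was 19.7, led by *Brdt* with 11.8. In d12c cells numbered 1 to 48 it was 21.4, led by *Ddx4* with 14.8, a gene that averaged 5.53 at d5. At d8 the leading gene was *Asz1* with 17.6 CPM, and the median cell had a sum of 1.48.

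Among all 12128 genes with a mean of at least 5 CPM at any time point, those most like each member over the 12 time points were found by Pearson correlation of log2 of (mean CPM + 1), as a description. *Dnmt1* was most like *Ran* (0.965), the GTPase of nuclear transport, followed by *Fam111a* (0.964) and *Slfn9* (0.944). *Uhrf1* was most like *Rangap1* (0.959), the GTPase activator of Ran, *Anp32e* (0.955) and *Lsm8* (0.946). *Dnmt3a* had weaker matches, *Swi5* (0.898), *Tstd2* (0.881) and *Tubb5* (0.869). For *Dnmt3b* they were *Trap1* (0.970), a chaperone of mitochondria, *Slc45a3* (0.958) and *Slc35f2* (0.953), and all 3 had their highest mean at d20. For *Dnmt3l* they were *Il10rb* (0.925), *Reep3* (0.865) and *Il1rap* (0.858), and for *Tet2* *Tnfaip6* (0.954), *Lrrc32* (0.954) and *Fam174b* (0.939), and all 6 had their highest mean at d12. *Tet1* was most like *Fbxl4* (0.958), *Efna4* (0.926) and *Fam208b* (0.915), and *Tet3* like *Cd38* (0.925), *Sesn1* (0.903) and *Clasrp* (0.902). *Dot1l* was most like *Sprr2a3* (0.937), *Pglyrp1* (0.931) and *Egln3* (0.929), of which *Pglyrp1* averaged 0 CPM at d0, 88.5 at d12 and 12.1 at d20. Among the members themselves the highest value was 0.863 for *Dnmt1* with *Uhrf1*, followed by 0.744 for *Tet1* with *Tet3* and 0.630 for *Dnmt3l* with *Tet2*. The lowest was -0.642 for *Dnmt3b* with *Tet2*.

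Several means differed by running number within a time point. At d20 the 30 cells numbered 1 to 48 averaged 8.63 CPM of *Dot1l* and the 8 numbered above 48 averaged 45.2. In the same order *Dnmt3b* had 18.2 and 40.0, *Dnmt3a* 27.5 and 70.4, and *Uhrf1* 67.2 and 16.5. At d4 the 40 cells of lower number averaged 29.5 CPM of *Dnmt1* and 6.46 of *Uhrf1*, against 64.8 and 47.1 in the 37 of higher number. At d12 *Tet2* had 30.4 and 13.7 CPM. Taking only cells of 1 range, *Dnmt3b* at d20 was above *Dnmt3b* at d12 in each (1.41 CPM at d12 for the lower and 2.06 for the higher). *Uhrf1* at d20 against d12 had a log2 ratio of 0.78 in the higher numbers alone, under the 2-fold limit. *Dot1l* at d20 against d0 was at 2.51 in the higher numbers alone and at 0.87 with all cells. In the lower numbers, which hold 30 of the d20 cells, its mean was not higher, with 9.37 CPM at d0 and 8.63 at d20.

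**Figure D5:**
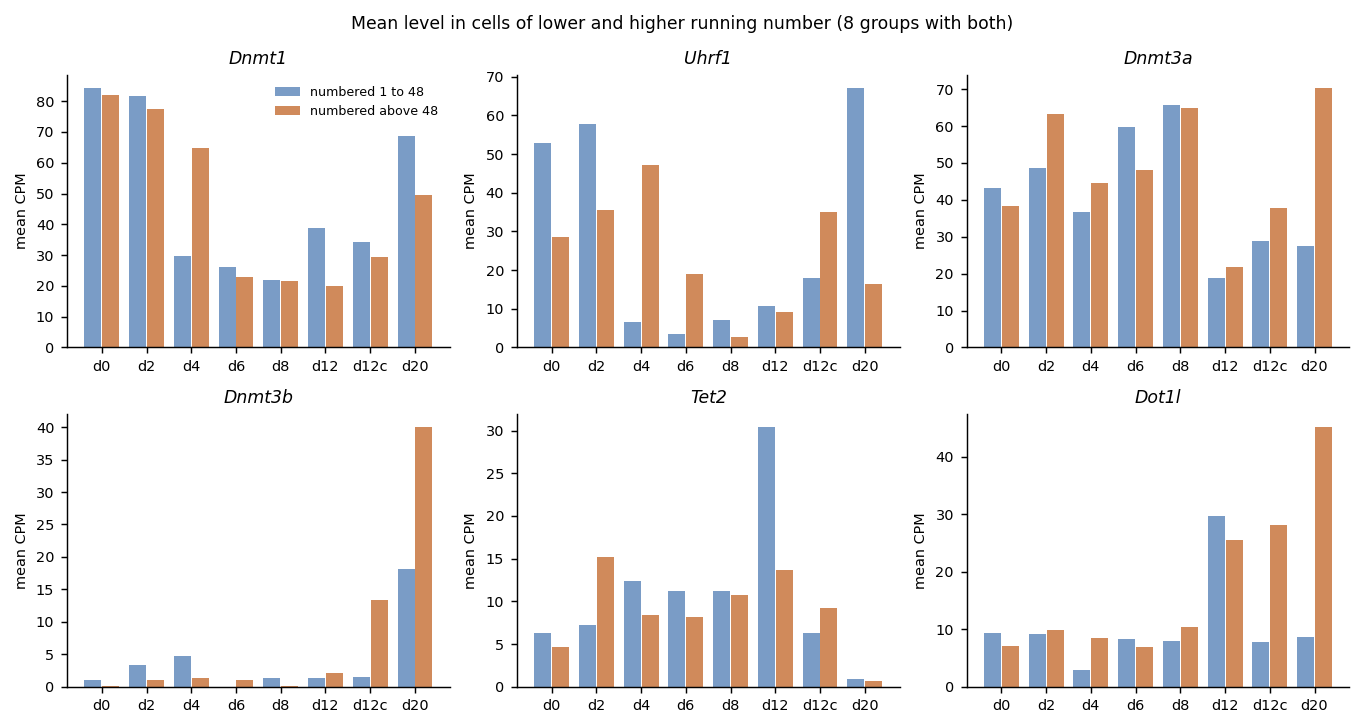
Mean level of 6 members in cells with running numbers 1 to 48 (blue) and above 48 (orange), in CPM, for the 8 time points that have both. Bars start at 0 and have no error bar. *Dot1l* at d20 is 8.63 in the lower and 45.2 in the higher numbers, and *Uhrf1* at d4 is 6.46 and 47.1.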

How the data were processed

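Per the labels and the study's methods, hand-picked cells were sequenced as polyA RNA, and the authors sorted trimmed reads by barcode, mapped them to mouse transcripts of mm9 and collapsed copies that shared a UMI. The deposited values are unscaled whole UMI counts. Neither the aligner nor the rule for listing a cell is given in the sources used here. Polyadenylation capture and amplification from 1 cell leave many true transcripts at a count of 0.

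Entries of the table with date names that occurred more than once (4 of 23201) and 92 spike-in RNAs (5.43% of counts) were left out of library sizes. Kept cells had between 17633 and 6004864 UMIs (median 510306). No doublet caller was run, since cells were picked by hand. Shares of cells were also computed in the 647 cells that could be thinned to 50000 UMIs, and correlations within time points. The members and lists were chosen with earlier results of these data known. Besides the members, the text names the 3 genes most like each member. It also names the 2 highest and 2 lowest ratios at d20 against d0, among genes with at least 5 CPM, of some lists. These are the lists of partners and those of fibroblast and XEN markers. For the S phase, G2/M and other marker lists no genes were named by this rule. Other list genes were named after their values were seen. Macrophage, endothelial, muscle, neural and pluripotent cell marker sums averaged at or under 151 CPM in every group. Single cells were higher, with up to 7682 CPM of muscle markers at d0 and 1819 of neural markers at d4. G2/M genes stood at 17 of 18 lower at d12 against d0 (19.3% of all genes) and 0 of 18 past 2-fold at d20 against d0 (42.3% of all genes).

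Levels and intervals came from scipy 1.17.1, pandas 2.3.3 and numpy 2.4.6 under Python 3.11.15, alternative scaling factors in R 4.3.3 with edgeR 4.0.16 and DESeq2 1.42.0, and copies of transcripts with minimap2 2.31. The comparison was checked on simulated data. Alternatives covered the filter on cells and genes, scaling, averaging, pseudocount (0.1 or 10 in place of 1), thinning, running numbers and threshold.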

Additional observations from a re-analysis of the deposited data

How the results depend on the processing

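No value past 2-fold changed its direction under any alternative run. Of 27 such values over the 6 comparisons, 27 stayed past the limit with spike-ins in the total or a pseudocount of 0.1, 26 with TMM or DESeq2 factors, with thinned cells or without the highest cell, 25 from pooled UMIs, 24 with no minimum or a minimum of 2000 genes per cell, and 23 with a minimum of 6000 genes or with averaged log2 values. Among running numbers 1 to 48 it was 21 of 21 values that could be computed, and above 48 it was 19 of 22. Only 13 of 27 stayed with a pseudocount of 10, which shrinks low genes, and 12 with a log2 limit of 2. At d1 against d0 the 2 members became 1 from pooled UMIs, 0 with a pseudocount of 10 and 0 with a limit of 2. With a pseudocount of 10 the 3 members at d5 against d0 became 1, the 4 at d20 against d0 became 2, and the 6 in d12c cells numbered above 48 against d12 became 2. With a limit of 2 the 6 at d12 against d0 became 0, the 4 at d20 against d0 became 2, and the 6 in those d12c cells became 3. The cause was not tested. *Dnmt3a* at d12 against d0 missed the limit under most alternatives. The time point of the highest mean held for 7 to 9 of 10 members, and that of the highest thinned share for 7 at 20000 UMIs and 5 at 100000 UMIs. Depth limits *Tdg*, *Dnmt3l* and *Tet2* at d20, each from under 20 UMIs. No paired analysis was possible because the cell names carry no batch or replicate number.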
